A study of Mus musculus with 6 samples.

Results

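Of the 27998 genes in the count tables, 101 belong to the respiratory chain by name. They are 13 genes of the mitochondrial genome, whose mouse symbols begin with mt-, and 88 nuclear genes whose symbols begin with Nduf, Uqcr or Atp5, or with Cox and a digit. Pseudogene symbols and the Cox genes numbered 10 and higher, which are assembly factors, were not taken. By their prefixes the nuclear genes fall into 38 for subunits of complex I, 7 for its assembly factors (Ndufaf), 8 for complex III, 18 for complex IV and 17 for complex V. Ndufa4, whose protein is now placed in complex IV, is therefore counted with complex I. The rule reads gene symbols only.

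The genes were measured by droplet single-cell RNA sequencing in the brains of mice of the C57BL/6 strain, 6 to 8 weeks old, 24 h after surgery. The 3 MCAO libraries come from mice with middle cerebral artery occlusion, a surgical model of ischemic stroke, and the 3 sham libraries from mice operated on without it. No genetic change or drug is named for either group, and both were digested with papain for 30 min, strained at 40 µm, spun in 30% Percoll, stained for viability and taken through the Chromium 3' kit. The labels do not give the animals behind a library, the dissected region or the day, so p-values here measure the spread between libraries, which may be technical.

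The respiratory chain passes electrons from NADH through complex I, and from succinate through complex II, to complex III, cytochrome c and complex IV, where oxygen is reduced. Complexes I, III and IV pump protons across the inner mitochondrial membrane, and complex V, the ATP synthase, uses the gradient to make ATP. The mitochondrial genome encodes a few core subunits of complexes I, III, IV and V, and the nuclear genome encodes all the others, so each of these complexes needs transcripts from both genomes. Astrocytes, microglia and the vessel wall differ in how far they rely on this pathway and on glycolysis, and an arterial occlusion cuts the supply of oxygen and glucose to all of them. Counts of polyadenylated RNA measure transcripts, not protein, complex assembly or respiration.

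The libraries held 25135690 to 42848023 unique molecular identifiers (UMIs) over 8104 to 11772 barcodes. After cells with more than 10% mt- UMIs or under 300 genes and called doublets were left out, 52630 of 58528 barcodes were kept. Any 2 libraries shared 77 to 184 barcodes, at most 1.84% of the smaller library. Cells were sorted by marker genes into classes without using the respiratory chain genes, and 11 classes had at least 20 cells in every library. A class name stands for cells that resemble that type, and in no class were its own defining markers at 0. Unnamed cells made up 1.48% to 3.29% of a library.

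Several measures moved with surgery in these classes, and their part in the results below was not tested. Levels are given in counts per 1000000 UMIs of a class and library (CPM). The summed level of the 10 microglia markers in microglia was 27240 to 29450 CPM in sham and 12810 to 13760 CPM in MCAO, and 9 of the 10 were lower. In the same cells the 8 markers of monocyte-derived cells summed to 85.1 to 104 CPM in sham and 187 to 246 CPM in MCAO, and 6 of them were higher. Microglia thus held fewer transcripts of their own markers and more of another immune class, per UMI, after MCAO. Astrocyte markers summed to 18980 to 19970 CPM in sham and 15590 to 17920 CPM in MCAO in astrocytes, where the microglia list summed to 795 to 1006 CPM in sham and 1172 to 1593 CPM in MCAO with 4 of 10 tested higher. In endothelial cells the endothelial list gave 21370 to 22500 CPM in sham and 20470 to 20850 CPM in MCAO, and the astrocyte list gave 208 to 255 CPM in sham and 383 to 452 CPM in MCAO with 11 of 12 tested higher. In each of these 3 classes, the other cell type's list named here was thus higher in every MCAO library. Choroid plexus markers, which microglia should lack, summed to 3976 to 4775 CPM in sham and 3323 to 3575 CPM in MCAO in microglia. Malat1, a nuclear RNA, had a larger share of UMIs in MCAO in all 11 classes with no overlap between the groups, 4.71% against 5.29% in microglia and 13.8% against 17.9% in astrocytes. Median UMIs per kept cell went from 2414 to 3598 in microglia and were 2149 and 2376 in endothelial cells and 3084 and 3334 in astrocytes.

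mt-Atp8 has to be set apart first, because its counts followed the library in every class. It encodes a small membrane subunit of the ATP synthase, and its reading frame overlaps the start of mt-Atp6, which encodes the channel subunit a, on the same transcript. The sequence is shown because the 2 genes share 43 bases, given in capitals, and lie on the plus strand of the mitochondrial genome.
mt-Atp8 (GRCm38, chrM:7766-7969, 204 bases, coding): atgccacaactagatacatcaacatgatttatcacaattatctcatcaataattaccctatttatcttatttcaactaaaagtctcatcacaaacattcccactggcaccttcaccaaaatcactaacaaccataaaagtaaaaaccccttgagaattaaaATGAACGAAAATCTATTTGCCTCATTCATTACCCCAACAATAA
In microglia mt-Atp8 gave 818, 1206 and 1613 CPM in sham and 255, 276 and 184 in MCAO, log2 change -2.34 ± 0.34, adjusted p = 0.004 by edgeR's quasi-likelihood test. Its UMIs per mt-Atp6 UMI, taken as the median over the 11 classes, were 0.226, 0.393 and 0.496 in the sham libraries and 0.0428, 0.0507 and 0.0371 in the MCAO libraries. Every sham library lay above every MCAO library in 11 of 11 classes. The sham libraries also kept 1 order among themselves, sham 1 below sham 2 below sham 3, in 11 of 11 classes, from neutrophils to choroid plexus epithelium. Library handling and surgery cannot be told apart for this gene. The labels do not say whether the groups were handled apart, so the same limit holds for every other gene here. Dynlt1b (log2 change -3.22 to -2.14) and Rpl9-ps6 (-2.55 to -1.21) were also called lower in all 11 classes. The shared counts of Gm42418 and AY036118, which overlap ribosomal RNA, were 3.40 to 4.09 times as high in MCAO across the same 11 classes. For microglia, endothelial cells and astrocytes the mt- share of UMIs is therefore given with and without mt-Atp8. All other mt- shares, ratios and counts of mt- genes include it unless stated.

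**Figure D1:**
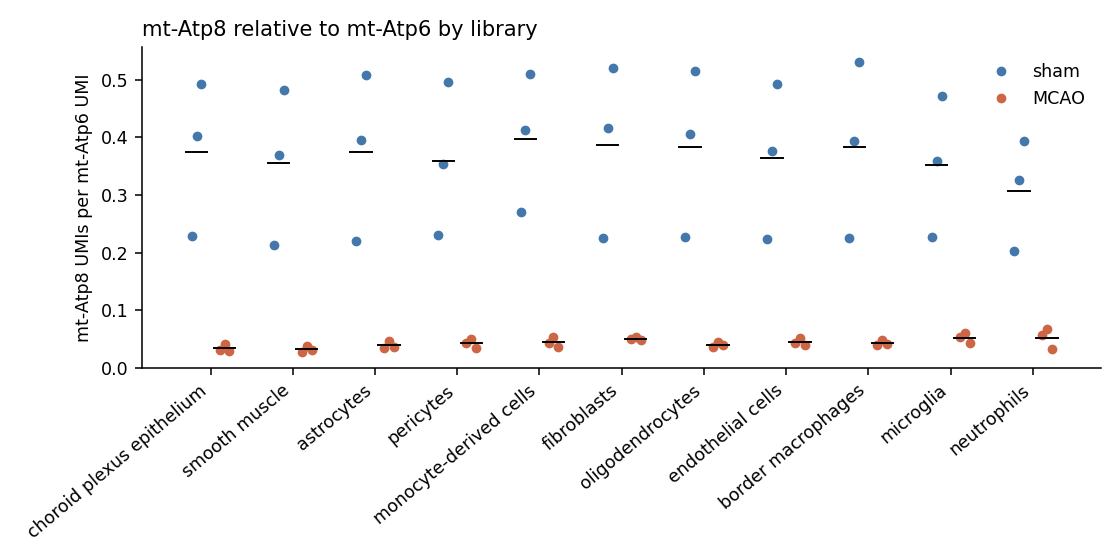
UMIs of mt-Atp8 per UMI of mt-Atp6 (vertical axis) in each of the 11 cell classes (horizontal axis), 1 point per library, sham and MCAO in different colours. In every class the 3 sham points are spread out in the same order and the 3 MCAO points lie below all of them.

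In sham, the classes differed several-fold in how much of their RNA came from these genes. In sham, nuclear respiratory chain genes took 7.40% ± 0.127 (SD, n = 3) of all UMIs in choroid plexus epithelium, which makes cerebrospinal fluid by active ion transport, and 1.31% ± 0.0593 in neutrophils, which depend largely on glycolysis. Between them came smooth muscle at 3.63% ± 0.0780, astrocytes at 3.43% ± 0.0849, pericytes at 3.23% ± 0.0540, monocyte-derived cells at 3.21% ± 0.196, fibroblasts at 2.74% ± 0.109, oligodendrocytes at 2.68% ± 0.0441, endothelial cells at 2.66% ± 0.0119, border macrophages at 1.90% ± 0.0209 and microglia at 1.58% ± 0.0128. Neighbours in this order did not overlap between libraries, except pericytes with monocyte-derived cells, and fibroblasts with oligodendrocytes and oligodendrocytes with endothelial cells. The share from mt- genes followed another order. It was highest in smooth muscle at 6.60% ± 0.241, followed by oligodendrocytes at 5.74% ± 0.157, astrocytes at 5.24% ± 0.0481, choroid plexus epithelium at 4.78% ± 0.629, fibroblasts at 3.99% ± 0.493 and pericytes at 3.34% ± 0.272. Lower values were found in border macrophages at 2.73% ± 0.167, endothelial cells at 2.65% ± 0.102, monocyte-derived cells at 2.42% ± 0.250, microglia at 1.68% ± 0.0583 and neutrophils at 0.925% ± 0.183. From astrocytes down to pericytes, and from border macrophages down to monocyte-derived cells, neighbouring classes overlapped between libraries. Cells above the 10% limit on mt- UMIs had been removed, which took 9.60% of sham choroid plexus cells and 7.19% of sham astrocytes but 1.06% of sham endothelial cells.

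**Figure D2:**
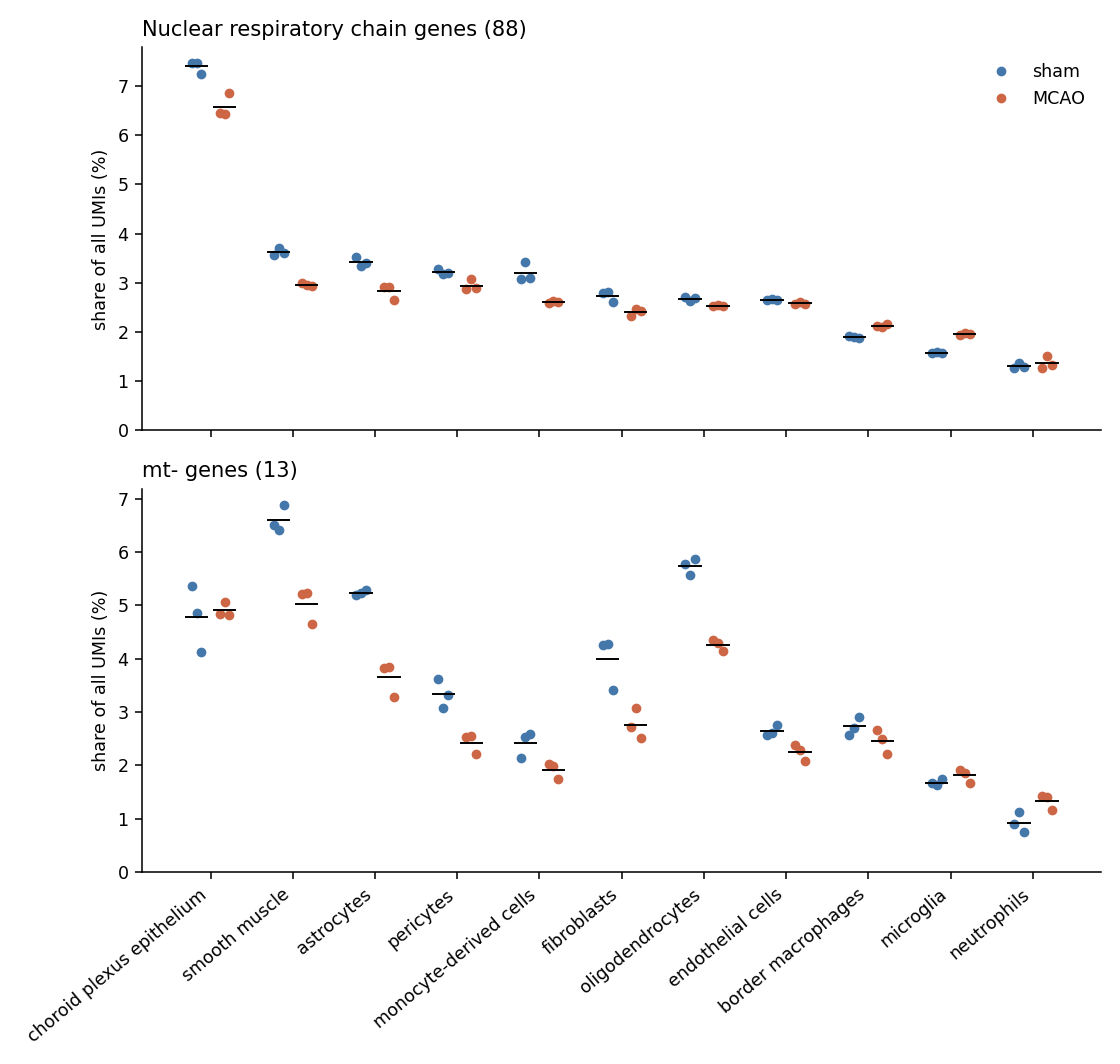
Percent of all UMIs that came from nuclear respiratory chain genes (first panel) and from mt- genes (second panel) in each cell class; points are libraries and dashes are group means. Nuclear shares lie above sham in MCAO microglia and border macrophages, with no overlap between the groups. Classes in which they lie below sham with no overlap include astrocytes, choroid plexus epithelium, smooth muscle, endothelial cells, monocyte-derived cells and fibroblasts.

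In microglia, the resident immune cells of the brain, nuclear respiratory chain genes were higher after MCAO in most cases, and in every complex. Of the 86 nuclear genes tested, 67 were called higher and 6 lower at an adjusted p under 0.05 (edgeR, Benjamini-Hochberg over all genes tested), while 29.9% of all 11713 genes tested were called higher and 31.8% lower. Their median log2 change was 0.40, with a range of -0.80 to 1.59, beside -0.046 for all genes. Their share of UMIs was 1.57, 1.59 and 1.57% in sham and 1.94, 1.99 and 1.96% in MCAO, so the highest sham library lay below the lowest MCAO library (exact permutation p = 0.1, two-sided, the smallest that 3 against 3 libraries allow). Higher calls numbered 31 of 38 subunits of complex I, 7 of 8 genes of complex III, 11 of 16 of complex IV and 15 of 17 of complex V. The median log2 change was 0.33 for complex I, 0.33 for complex III, 0.47 for complex IV and 0.49 for complex V.

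Among complex I genes the accessory subunit Ndufa12 (GRCm38, chr10:94198720-94221443, plus strand) had the highest log2 change of those above 50 CPM, with 144, 145 and 138 CPM in sham and 339, 334 and 327 in MCAO (log2 change 1.23 ± 0.049, adjusted p = 3.85e-14). The accessory subunit Ndufb6 gave 91.2, 74.6 and 82.7 CPM in sham and 155, 172 and 159.7 in MCAO (log2 change 0.97 ± 0.067, adjusted p = 3.26e-10). Ndufa4 gave 324, 303 and 305 CPM in sham and 508, 521 and 513 in MCAO (log2 change 0.73 ± 0.047, adjusted p = 7.22e-11). For all 3 genes each MCAO library lay above each sham library, and the 3 libraries of a group lay close together. The genes were named for their level or change in the same fit. The separation of libraries, here and for genes named below, therefore only describes them. The assembly factor Ndufaf4, which helps build the complex before it enters the chain, gave 36.0, 34.9 and 33.5 CPM in sham and 67.7, 66.6 and 69.2 in MCAO (log2 change 0.96 ± 0.074, adjusted p = 8.94e-10). Ndufaf6 (0.51) and Ndufaf2 (0.45) were also higher by log2 change, and Ndufaf1, Ndufaf3 and Ndufaf5 were not called.

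Complex III takes electrons from ubiquinol to cytochrome c. Uqcrb, a small subunit near its ubiquinone site, gave 331, 329 and 317 CPM in sham and 519, 555 and 521 in MCAO (log2 change 0.71 ± 0.048, adjusted p = 1.35e-10). Uqcrq, another small subunit, gave 234, 244 and 248 CPM in sham and 456, 442 and 470.1 in MCAO (log2 change 0.91 ± 0.048, adjusted p = 3.16e-12). The groups were again apart for both. In complex IV, the nuclear-encoded subunit Cox5a gave 158, 164 and 159.5 CPM in sham and 339, 354 and 347 in MCAO (log2 change 1.11 ± 0.047, adjusted p = 1.26e-13). Cox7b gave 149, 142 and 135 CPM in sham and 249.5, 263 and 293 in MCAO (log2 change 0.92 ± 0.06, adjusted p = 1.56e-10). Cox4i1, the most abundant of the complex IV transcripts in microglia and the main form of a regulatory subunit, moved less, with 659, 622 and 603 CPM in sham and 822, 866 and 826 in MCAO (log2 change 0.42 ± 0.048, adjusted p = 3.25e-07). In complex V, Atp5g1 (GRCm38, chr11:96068852-96075670, minus strand) encodes the subunit c that forms the rotor ring, and it gave 247, 236 and 238 CPM in sham and 544, 563 and 544 in MCAO (log2 change 1.20 ± 0.047, adjusted p = 2.96e-14). Atp5b, which encodes the catalytic subunit beta, gave 398, 399 and 375 CPM in sham and 652, 646 and 654 in MCAO (log2 change 0.74 ± 0.046, adjusted p = 4.55e-11). These 7 genes were thus higher by unequal amounts. In the last 400 bases of their transcripts, Atp5g1, Ndufa12 and Uqcrb share 39.9%, 32.6% and 40.7% of their 50-base windows with other genes, mostly processed pseudogenes, so their counts are uncertain. Among the 67 tested genes with under 10% shared windows, 50 were called higher and 5 lower.

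A few genes went against the rest. Cox7a2l (GRCm38, chr17:83501918-83517330, minus strand), counted with complex IV by its name, gave 242, 244 and 244 CPM in sham and 139.7, 146 and 142 in MCAO (log2 change -0.77 ± 0.047, adjusted p = 3.34e-11). Ndufaf7, a methyltransferase needed for complex I assembly, gave 61.8, 62.1 and 56.7 CPM in sham and 38, 42.5 and 42.9 in MCAO (log2 change -0.55 ± 0.078, adjusted p = 5.24e-06). The complex I subunit Ndufa6 gave 216, 213 and 229 CPM in sham and 177, 183 and 181 in MCAO (log2 change -0.28 ± 0.049, adjusted p = 4.86e-05). None of the 3 had overlapping groups, and Cox7a2l was almost the same in the 3 sham libraries. Ndufb3, Atp5sl and Cox6b2 were the other lower calls, at log2 -0.17, -0.51 and -0.80. The call of Ndufb3 was lost without sham 1 (adjusted p = 0.09), without sham 2 (adjusted p = 0.087), without MCAO 1 (adjusted p = 0.08) and without MCAO 2 (adjusted p = 0.053), with RLE scaling (adjusted p = 0.055) and with DESeq2 (adjusted p = 0.18). For Cox6b2, a rare transcript here, it was lost without sham 2 (adjusted p = 0.057), without sham 3 (adjusted p = 0.1) and without MCAO 3 (adjusted p = 0.056) and with DESeq2 (adjusted p = 0.088).

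Different clusters held the microglia of the groups. Cluster 1 held 5746 of the sham cells, with a nuclear share of 1.58% ± 0.00984, and cluster 4 held 3655 of the MCAO cells, at 1.90% ± 0.0280. Cluster 9 (1734 MCAO cells) and cluster 18 (502 MCAO cells), both led by Cd72, Lpl and other activation genes and with microglia markers at a mean of 0.332 and 0.356 of the level in the cluster where each marker was highest, had nuclear shares of 1.87% ± 0.0398 and 3.12% ± 0.0390. The mt- shares of clusters 4, 9 and 18 in MCAO were 1.98%, 1.38% and 2.86%, so cluster 9 combined a raised nuclear share with an mt- share below that of sham cluster 1 (1.67%). Without mt-Atp8 these mt- shares were 1.96%, 1.36% and 2.83% in MCAO, and 1.54% in sham cluster 1. The 184 sham cells in cluster 4 had a nuclear share of 1.65%, and the 85 MCAO cells in cluster 1 had 1.65%. Without clusters 9 and 18, a setting added after seeing the data, 64 nuclear genes were called higher and 6 lower.

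Mitochondrial transcripts in microglia were also called higher in 11 of 13 cases by edgeR, and 1 was lower, mt-Atp8. mt-Nd1, a core subunit of complex I, gave 1946, 1787 and 1811 CPM in sham and 3049, 2946 and 2736 in MCAO (log2 change 0.66 ± 0.051, adjusted p = 1.18e-09). mt-Co1, the catalytic core of complex IV, gave 1470, 1371 and 1523 CPM in sham and 1949, 1961 and 1786 in MCAO (log2 change 0.38 ± 0.051, adjusted p = 2.41e-06). mt-Atp6 gave 3610, 3358 and 3426 CPM in sham and 4754, 4585 and 4206 in MCAO (log2 change 0.38 ± 0.051, adjusted p = 2.36e-06). MCAO libraries were above sham libraries for all 3, with MCAO 3 the lowest of its group. mt-Nd6, encoded on the opposite strand from the other genes, gave 7.04, 7.19 and 8.67 CPM in sham and 18.6, 13.3 and 12.4 in MCAO (log2 change 0.95 ± 0.18, adjusted p = 1.52e-04). Lower log2 changes were found for mt-Nd4 (0.27), mt-Co3 (0.21) and mt-Cytb (0.18), the mitochondrial subunit of complex III, whose libraries overlapped. The call of mt-Cytb was lost without sham 2 (adjusted p = 0.12) and without sham 3 (adjusted p = 0.059). mt-Nd3 was not called, at 143, 132 and 115 CPM in sham and 99.9, 119 and 165 in MCAO (log2 change -0.024 ± 0.23, adjusted p = 0.94). The transcripts of mt-Co1, mt-Co2, mt-Co3, mt-Atp6, mt-Nd4l and mt-Nd3 match nuclear pseudogene copies over most of their windows, so their counts are uncertain. Of all UMIs, mt- genes took 1.67, 1.62 and 1.74% in sham and 1.91, 1.85 and 1.67% in MCAO, which overlapped (exact permutation p = 0.2, two-sided). Without mt-Atp8 they took 1.58, 1.50 and 1.57% in sham and 1.88, 1.83 and 1.66% in MCAO, with no overlap (exact permutation p = 0.1, two-sided). The mt- UMIs per nuclear respiratory chain UMI, mt-Atp8 included, were 1.06 ± 0.0435 in sham and 0.923 ± 0.0640 in MCAO.

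Promoter sequences are shown for 3 of the nuclear genes that were higher in microglia and hold the letters of an NRF1 site, since NRF1 is a factor long known to drive respiratory chain genes. Each is 60 bases of the sense strand, 5′ to 3′, with the NRF1 letters (GCGCA, any base, then GCGC, or the reverse complement) in capitals.
Ndufaf4 (RefSeq promoter, GRCm38.p6, chr4:24897945-24898004, plus strand): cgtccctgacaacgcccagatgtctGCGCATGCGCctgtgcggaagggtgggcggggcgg
Cox6a1 (RefSeq promoter, GRCm38.p6, chr5:115349086-115349145, minus strand): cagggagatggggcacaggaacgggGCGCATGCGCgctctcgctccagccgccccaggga
Ndufs6 (RefSeq promoter, GRCm38.p6, chr13:73328483-73328542, minus strand): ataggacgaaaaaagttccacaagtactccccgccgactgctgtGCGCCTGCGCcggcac
The capitals lie 113 to 104 bases before the annotated start of Ndufaf4, 162 to 153 before that of Cox6a1 and 16 to 7 before that of Ndufs6. Cox6a1, the usual form of a complex IV subunit, gave 336, 330.4 and 312 CPM in sham and 539, 538 and 535 in MCAO in microglia (log2 change 0.72 ± 0.047, adjusted p = 7.14e-11), and the complex I subunit Ndufs6 had a log2 change of 0.57. Within 250 bases before to 50 after the start, on both strands, the NRF1 letters stood in 17 of the 70 nuclear genes with a RefSeq promoter entry (24.3%), and in 5.19% of all 27025 genes. The ETS letters CCGGAAG stood in 21.4% against 9.93%, and the YY1 letters AAGATGG followed by CGG, which can overlap them, in 7.14% against 0.995%. The letters ACGTG of the hypoxia response element stood in 22.9% against 21.8%. The median log2 change in microglia was 0.40 for the 17 genes with NRF1 letters and 0.39 for the 53 without. A match of letters is a description and not a bound site.

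**Figure D3:**
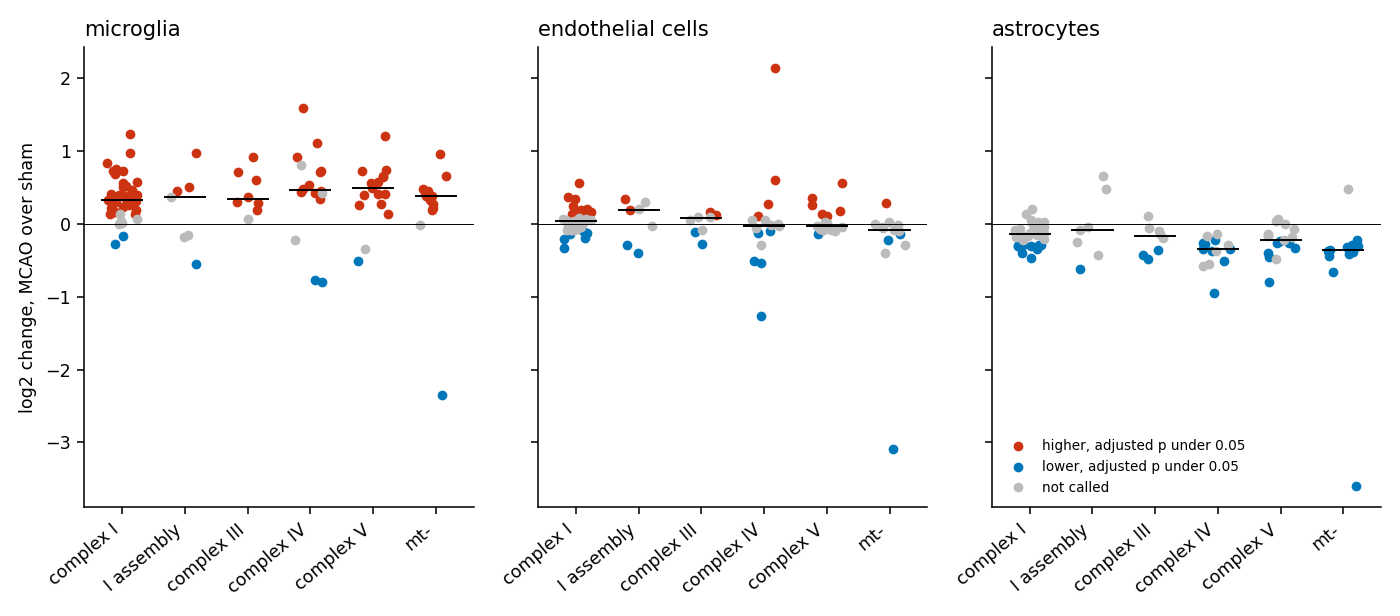
Log2 change (MCAO over sham, edgeR) of each tested gene, grouped by complex, in microglia, endothelial cells and astrocytes; points are genes, lines are medians and colours give the call. Most microglia points lie above 0, endothelial points lie on both sides, and no nuclear gene is called higher in astrocytes.

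Endothelial cells, which line the vessels and form the blood-brain barrier, split in both directions. Of 86 nuclear respiratory chain genes, 27 were higher, 17 lower and 42 not called by edgeR, beside all 12497 genes, of which 24.3% were called higher and 22.2% lower. The median log2 change was 0.015, beside -0.024 for all genes. Complex V had 6 higher and 1 lower calls, complex IV 4 and 5, and complex I 13 and 7. Atp5g1 gave 241, 248 and 237 CPM in sham and 364, 363 and 343 in MCAO (log2 change 0.56 ± 0.04, adjusted p = 9.76e-10). Atp5b gave 631, 625 and 597 CPM in sham and 793, 783 and 791 in MCAO (log2 change 0.35 ± 0.038, adjusted p = 2.48e-07). Ndufa12 gave 223, 222 and 220.3 CPM in sham and 276, 295 and 272 in MCAO (log2 change 0.34 ± 0.041, adjusted p = 1.42e-06). These 3 were apart between the groups and were among the higher calls of microglia too. Ndufb6 (log2 change 0.36) and Cox5a (0.27) were also higher, and the assembly factor Ndufaf4 (0.34) lost its call when every cell was thinned to 1000 UMIs (adjusted p = 0.12). With thinning, 14 genes in all were called higher, and with DESeq2 11 were called lower.

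The lowest endothelial log2 change among genes above 50 CPM was that of Cox7a2l, with 409, 400.0 and 374 CPM in sham and 269, 272 and 269 in MCAO (log2 change -0.55 ± 0.041, adjusted p = 2.10e-09). The assembly factor Ndufaf3 gave 81.6, 85.5 and 89.2 CPM in sham and 62.0, 65.5 and 66.0 in MCAO (log2 change -0.41 ± 0.055, adjusted p = 4.83e-06). Ndufa6 gave 488, 488 and 480.4 CPM in sham and 368, 389 and 393 in MCAO (log2 change -0.34 ± 0.039, adjusted p = 7.23e-07). Every MCAO library was below every sham library for these. Uqcrh, the acidic hinge subunit through which complex III meets cytochrome c, gave 586, 564 and 553 CPM in sham and 460.1, 473 and 464 in MCAO (log2 change -0.28 ± 0.038, adjusted p = 5.50e-06). Ndufaf7 (-0.30), Ndufa3 (-0.22) and Atp5j (-0.14) were lower by log2 change, and the abundant Ndufa4 (0.058), Cox4i1 (-0.036) and Uqcrb (0.093) were not called. The nuclear share of UMIs was 2.65, 2.67 and 2.66% in sham and 2.58, 2.61 and 2.57% in MCAO (exact permutation p = 0.1, two-sided), which fell by 0.0716 percentage points with no overlap.

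As in microglia, different clusters held most endothelial cells of the groups. Cluster 0 held 8242 sham and 392 MCAO cells and cluster 3 held 4076 and 312, while cluster 2 held 68 sham and 5637 MCAO cells, and clusters 5 and 11 held 3163 and 1490 MCAO cells. In the MCAO-rich clusters 2, 5 and 11 the nuclear share was 2.55% ± 0.0171, 2.68% ± 0.0243 and 2.45% ± 0.0245 in MCAO. In cluster 0 it was 2.69% ± 0.00801 in sham and 2.75% ± 0.0411 in MCAO, higher in each MCAO library, and in cluster 3 2.60% ± 0.0143 and 2.53% ± 0.0218, lower in each. The direction within a cluster thus differed between clusters 0 and 3, a difference that was not tested.

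Of the 13 mt- genes in endothelial cells, 3 were called lower and 1 higher. mt-Co2, a subunit of complex IV, changed by log2 -0.14, mt-Nd5 by -0.23 and mt-Atp8 by -3.09, and the calls of mt-Co2 (adjusted p = 0.18) and mt-Nd5 (adjusted p = 0.24) were lost after thinning to 1000 UMIs. mt-Nd6 was called higher (log2 change 0.28 ± 0.11, adjusted p = 0.046) although its libraries overlapped, and this call was lost without sham 1 (adjusted p = 0.13), without sham 2 (adjusted p = 0.095), without sham 3 (adjusted p = 0.058), without MCAO 1 (adjusted p = 0.21) and without MCAO 2 (adjusted p = 0.14). Without MCAO 3, 5 mt- genes were called lower and 2 higher. Together the mt- genes took 2.57, 2.60 and 2.76% in sham and 2.39, 2.28 and 2.08% in MCAO of UMIs (exact permutation p = 0.1, two-sided). Without mt-Atp8 the shares came to 2.42, 2.35 and 2.44% in sham and 2.36, 2.25 and 2.05% in MCAO, and the groups overlapped (exact permutation p = 0.2, two-sided).

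Astrocytes, the glia that contact synapses and vessels, showed lower respiratory chain transcripts from both genomes after MCAO. Of 85 nuclear genes, 31 were called lower and 0 higher by edgeR, while over all 10139 genes tested 11.2% were called lower and 13% higher. At an unadjusted p under 0.05 there were 44 nuclear genes in either direction, and DESeq2 also called 0 higher. The median log2 change was -0.19, beside -0.013 for all genes. Lower calls numbered 9 of 15 in complex IV, 7 of 17 in complex V, 3 of 8 in complex III and 11 of 38 among complex I subunits. The nuclear share of UMIs was 3.52, 3.35 and 3.41% in sham and 2.91, 2.92 and 2.65% in MCAO, with no overlap (exact permutation p = 0.1, two-sided), and MCAO 3 was the lowest.

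The small complex IV subunit Cox7b gave 425, 383 and 402 CPM in sham and 294, 271 and 280.2 in MCAO (log2 change -0.52 ± 0.089, adjusted p = 1.39e-05). Cox8a, another small subunit, gave 1350, 1305 and 1282 CPM in sham and 1100, 1104 and 940.3 in MCAO (log2 change -0.32 ± 0.082, adjusted p = 0.0023). Both had higher values in each sham library than in any MCAO library. In complex III, Uqcr11 gave 899.7, 808 and 855 CPM in sham and 617, 626 and 582 in MCAO (log2 change -0.49 ± 0.082, adjusted p = 8.51e-06) and Uqcr10 changed by log2 -0.43. The ATP synthase subunit Atp5k gave 637, 659 and 652 CPM in sham and 438, 482 and 503 in MCAO (log2 change -0.45 ± 0.084, adjusted p = 4.73e-05). The complex I subunit Ndufa3 gave 583, 516 and 551 CPM in sham and 388, 398 and 406 in MCAO (log2 change -0.47 ± 0.085, adjusted p = 3.14e-05), a call lost after thinning to 1000 UMIs (adjusted p = 0.066). The lowest log2 change above 50 CPM was that of the assembly factor Ndufaf3, with 54.8, 62.4 and 65.9 CPM in sham and 44.4, 41.6 and 33.8 in MCAO (log2 change -0.62 ± 0.16, adjusted p = 0.0028). All of these were apart between the groups. Genes not called include Ndufc2 (-0.083), Atp5l (-0.17) and Cox7a2l (log2 change -0.29 ± 0.12, adjusted p = 0.061).

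The astrocyte count of lower nuclear genes depended on which cells and libraries were used. It was 18 without sham 3, 17 when only cells with at most 5% mt- UMIs were kept, 17 after thinning to 1000 UMIs, 19 with DESeq2 and 11 in the largest astrocyte cluster alone, a setting added after seeing the data in which 1 gene was called higher. That cluster, cluster 8, had a nuclear share of 3.46% ± 0.0797 in 846 sham cells and 3.02% ± 0.0908 in 1406 MCAO cells. Cluster 19, led by Gfap, held 462 MCAO cells, with a nuclear share of 2.31% ± 0.182, and 7, 10 and 15 cells of the sham libraries. Its astrocyte markers stood at a mean of 0.535 of the level in the cluster where each marker was highest. Its microglia markers stood at 0.241 on the same scale, and their part in this share was not tested. In the largest cluster alone the calls of Cox8a (adjusted p = 0.098) and Ndufaf3 (adjusted p = 0.19) were lost.

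Among mt- genes in astrocytes, 12 of 13 were called lower and mt-Nd6 was not called (log2 change 0.48 ± 0.27, adjusted p = 0.22). mt-Nd3 gave 267, 271 and 222 CPM in sham and 133, 150.5 and 197 in MCAO (log2 change -0.66 ± 0.12, adjusted p = 2.95e-04), a call lost when doublets were kept (adjusted p = 0.076). mt-Co3, a subunit of complex IV, gave 10600, 10180 and 9966 CPM in sham and 8252, 8381 and 6518 in MCAO (log2 change -0.41 ± 0.083, adjusted p = 1.84e-04). mt-Nd2 gave a log2 change of -0.44, mt-Co1 of -0.38 and mt-Atp6 of -0.36. These genes were lower in every MCAO library. The calls of mt-Cytb (-0.22) and mt-Nd5 (-0.30) were the least stable: that of mt-Cytb was lost without sham 1 (adjusted p = 0.12), without sham 2 (adjusted p = 0.097), without sham 3 (adjusted p = 0.1), without MCAO 1 (adjusted p = 0.056) and without MCAO 3 (adjusted p = 0.077), and that of mt-Nd5 without sham 2 (adjusted p = 0.14), without sham 3 (adjusted p = 0.17), without MCAO 1 (adjusted p = 0.096) and without MCAO 3 (adjusted p = 0.084). That of mt-Nd4l (-0.38) was lost without sham 2 (adjusted p = 0.12) and without MCAO 1 (adjusted p = 0.054). With cells limited to 5% mt- UMIs, which caps the quantity being compared, 2 mt- genes were called lower. The mt- share of UMIs was 5.19, 5.23 and 5.29% in sham and 3.83, 3.84 and 3.28% in MCAO (exact permutation p = 0.1, two-sided) and, without mt-Atp8, 4.92, 4.76 and 4.69% in sham and 3.79, 3.80 and 3.25% in MCAO. The 10% limit had removed 7.19% of sham and 5.13% of MCAO astrocytes.

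The differences between classes were tested directly, in 1 edgeR fit for each pair of classes with the library as a term. The log2 change in microglia was above that in endothelial cells for 64 of 86 nuclear genes and below it for 3, where 24.7% of all genes tested were above and 21.7% below. The widest gaps among genes above 50 CPM in microglia were Ndufa12 (0.93 ± 0.055), Cox7b (0.91 ± 0.063), Uqcrq (0.90 ± 0.049) and Cox5a (0.89 ± 0.05). Ndufaf7, Atp5sl and Cox7a2l were the 3 genes whose change was lower in microglia than in endothelial cells, a count of 1 without sham 2 or MCAO 1. Astrocytes were below endothelial cells for 38 of 85 nuclear genes and above for 0 (1 without MCAO 3), with 9.95% of all genes below and 7.09% above. Atp5g1 (-0.69 ± 0.087), Ndufaf4 (-0.64 ± 0.13) and Cox7b (-0.61 ± 0.091) are examples. This count was 19 without sham 1, 22 without sham 2, 21 without sham 3 and 22 without MCAO 3. Microglia were above astrocytes for 65 of 85 nuclear genes and below for 1, Cox7a2l (2 without sham 3 or MCAO 3), with 17.2% of all genes above and 17.3% below. Cox7b differed by 1.45 ± 0.10, Ndufa12 by 1.34 ± 0.09 and Atp5g1 by 1.29 ± 0.092.

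For mt- genes the microglial change was above the endothelial change in 13 of 13 cases and above the astrocytic change in 12 of 13, and astrocytes were below endothelial cells in 9 of 13. The last count was 4 without sham 2 or MCAO 2 and 5 without MCAO 1 or MCAO 3.

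**Figure D4:**
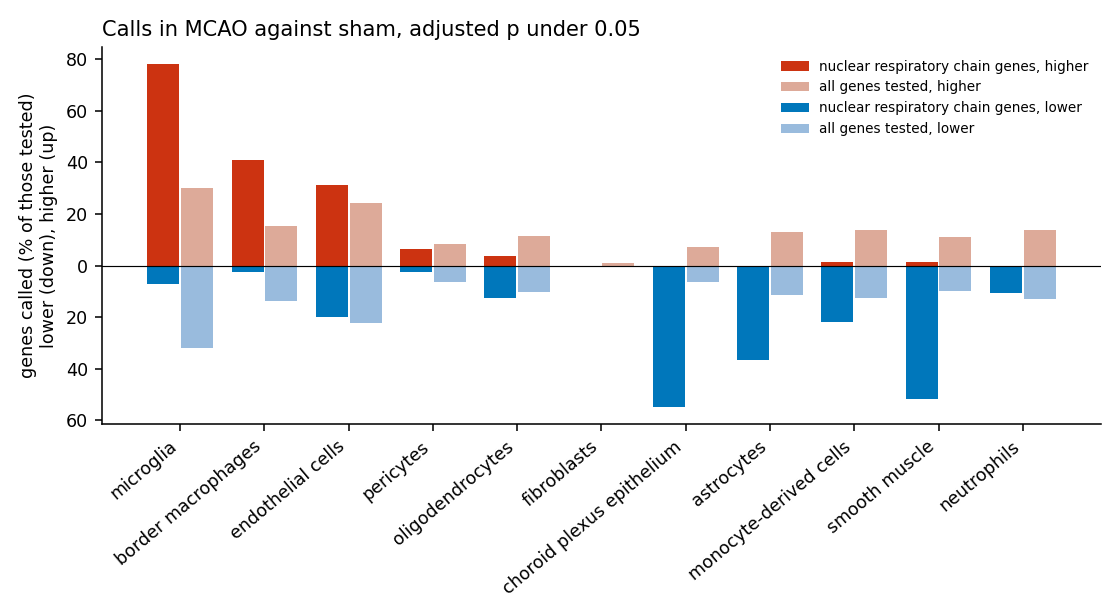
Percent of tested genes called higher or lower after MCAO (edgeR, adjusted p under 0.05) in each class, for nuclear respiratory chain genes and for all genes. Among the higher calls, the nuclear genes stand above all genes most clearly in microglia and border macrophages. Among the lower calls they do so most clearly in astrocytes, choroid plexus epithelium and smooth muscle, and less so in monocyte-derived cells.

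Border macrophages, the immune cells of the meninges and perivascular spaces, resembled microglia in the direction of their calls. They had 32 higher and 2 lower of 78 nuclear genes (15.4% and 13.6% of all genes), and their nuclear share was 1.92, 1.91 and 1.88% in sham and 2.11, 2.10 and 2.16% in MCAO (exact permutation p = 0.1, two-sided). Cox7b gave 62.7, 60.7 and 63.6 CPM in sham and 189.9, 169.9 and 188 in MCAO (log2 change 1.55 ± 0.13, adjusted p = 1.29e-11). Cox6a1 gave 209, 182 and 219.7 CPM in sham and 464, 478 and 553 in MCAO (log2 change 1.29 ± 0.10, adjusted p = 6.92e-13). Both were apart by a wide margin in all libraries, and Cox7a2l (-0.60) and Uqcrh (-0.34) were the 2 lower calls. Their mt- share overlapped between the groups, with and without mt-Atp8. Of the mt- genes, 3 were called higher and 4 lower; the lower count was 1 without MCAO 2 and 2 without sham 3 or MCAO 3, and the higher count 1 without sham 2.

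Choroid plexus epithelium and smooth muscle moved the other way. The choroid plexus had 0 higher and 46 lower of 84 nuclear genes by edgeR (7.22% and 6.55% of all genes), with 56 at an unadjusted p under 0.05 in either direction, and a nuclear share of 7.48, 7.47 and 7.25% in sham and 6.45, 6.43 and 6.86% in MCAO (exact permutation p = 0.1, two-sided), while its mt- share overlapped between the groups. Cox8a changed by log2 -0.28 there. Smooth muscle had 1 higher and 43 lower of 83 nuclear genes (11.2% and 9.68% of all genes), with a nuclear share of 3.57, 3.72 and 3.60% in sham and 2.99, 2.96 and 2.94% in MCAO and an mt- share of 6.52, 6.42 and 6.88% in sham and 5.21, 5.22 and 4.65% in MCAO (exact permutation p = 0.1 for each, two-sided). This mt- share includes mt-Atp8, at 5862 ± 2233 CPM in sham and 432 ± 74.5 in MCAO in smooth muscle. Cox8a was 1887 ± 53.7 CPM in sham and 1217 ± 32.4 in MCAO (log2 change -0.63 ± 0.054, adjusted p = 1.44e-11). Of the complex I subunits, 17 were called lower. The defining markers fell here too: the smooth muscle list summed to 28310 to 29170 CPM in sham and 22270 to 23290 CPM in MCAO, with 7 of 7 lower.

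Oligodendrocytes, the myelinating glia, had 3 higher and 10 lower of 79 nuclear genes (11.4% and 10.4% of all genes) and 9 of 13 mt- genes lower. Their mt- share was 5.78, 5.57 and 5.87% in sham and 4.34, 4.30 and 4.14% in MCAO, with no overlap, and the 10% limit had removed 6.68% of sham and 14.0% of MCAO cells, more in MCAO. Ndufaf4 was higher (0.61) and Ndufaf3 lower (-0.56) by log2 change, both factors for the same complex. The oligodendrocyte markers summed to 76810 to 84110 CPM in sham and 54610 to 60250 CPM in MCAO. The lower nuclear count was 5 without sham 1 or MCAO 1 and 6 without sham 2, and the higher count was 1 when any sham library or MCAO 2 was left out.

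Monocyte-derived cells, which enter from blood, had 1 higher and 18 lower of 82 nuclear genes (13.8% and 12.7% of all genes), with a nuclear share of 3.09, 3.43 and 3.10% in sham and 2.59, 2.63 and 2.61% in MCAO and 141 sham cells against 1418 MCAO cells. Different clusters held them: cluster 20, led by Plac8, held 139 of the sham cells and 302 MCAO cells, and cluster 13, led by Arg1, 1116 MCAO cells. The nuclear share was 3.21% ± 0.191 in sham and 2.62% ± 0.0728 in MCAO cells of cluster 20, and 2.61% ± 0.0309 in cluster 13. Ndufa4 was 715 ± 66.2 CPM in sham and 421 ± 22.7 in MCAO (log2 change -0.77 ± 0.11, adjusted p = 3.02e-05), while Uqcrb was the 1 higher call (0.44), with 0 called without sham 3, MCAO 1 or MCAO 2 and 6 without sham 2. Neutrophils, short-lived and poor in mitochondria, had 0 higher and 7 lower of 67 nuclear genes by edgeR (13.9% and 13% of all genes), with 17 at an unadjusted p under 0.05 in either direction, and an overlapping nuclear share. Their mt- share was 0.902, 1.12 and 0.754% in sham and 1.42, 1.40 and 1.16% in MCAO (exact permutation p = 0.1, two-sided), higher in each MCAO library with or without mt-Atp8. mt-Nd1 (0.78), mt-Nd2 (0.83), mt-Nd4 (0.61) and mt-Cytb (0.52) were the higher calls in neutrophils by log2 change. The lower nuclear count in neutrophils was 3 without sham 1 or MCAO 1, 1 without sham 2 and 4 without MCAO 3. Pericytes had 5 higher and 2 lower of 78 nuclear genes (8.42% and 6.28% of all genes), and the higher count was 3 without sham 1, 1 without sham 3 and 2 without MCAO 2 or MCAO 3. In fibroblasts, with the fewest cells, edgeR called 0 higher and 0 lower of 74, and 3 had an unadjusted p under 0.05, with 0.935% and 0.321% of all genes called. Their nuclear share was nevertheless lower in each MCAO library, at 2.79, 2.81 and 2.61% in sham and 2.32, 2.47 and 2.42% in MCAO.

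Some genes were called in only 1 direction over the 11 classes. Cox7a2l had a negative log2 change in 11 of 11 classes, from -0.77 to -0.067, and was called lower in 7 and higher in 0. Ndufa6, Ndufb3 and Uqcrh were also called lower in 7 classes each and higher in 0. For Uqcrh the log2 changes ran from -0.58 to 0.063, and for Ndufa6 from -0.42 to 0.17. Cox5a, Atp5g1 and Atp5f1 were called higher in 4 classes each, but also lower in 1, 2 and 1. These genes were picked for their values, so the counts only describe them.

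Several subunits of complex IV come in alternative forms from separate genes, and the share of an alternative form within its pair sets it against the usual form. The share moves when either form moves, so it also shifts where only the usual form changes along with the chain. Cox4i2 (GRCm38, chr2:152754173-152765037, plus strand) is the form of subunit 4 known to be induced by low oxygen, and Ndufa4l2 is a hypoxia-induced relative of Ndufa4. Both were concentrated in the vessel wall. In sham pericytes Cox4i2 was 1026 ± 183 CPM, against 222 ± 5.31 in smooth muscle, 39.4 ± 4.25 in astrocytes, 15.4 ± 4.48 in fibroblasts and at most 5.06 in the other 7 classes. A Cox4i2 UMI was found in 81.4% of sham pericytes, and in 1.07% of choroid plexus cells, a class that should lack it, with median depths of 2062 and 5958 UMIs. Ndufa4l2 was 2001 ± 93.4 CPM in sham pericytes, 699 ± 15.9 in smooth muscle and 80.0 ± 45.8 in fibroblasts.

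After MCAO the Cox4i2 share of Cox4i1 and Cox4i2 UMIs in pericytes was 48.2, 51.2 and 49.5% in sham and 40.8, 45.2 and 40.5% in MCAO, lower in each MCAO library. In smooth muscle it was 13.7, 14.7 and 15.4% in sham and 18.8, 17.8 and 19.9% in MCAO, higher in each MCAO library (exact permutation p = 0.1 for each, two-sided). The direction differed between these mural cells, a difference that was not tested. By edgeR, Cox4i2 in pericytes gave 821, 1174 and 1085 CPM in sham and 726, 904 and 679.9 in MCAO (log2 change -0.41 ± 0.12, adjusted p = 0.024), with overlapping libraries, and in smooth muscle 216, 226 and 223 CPM in sham and 247, 235 and 252 in MCAO (log2 change 0.14 ± 0.078, adjusted p = 0.21). The partner Cox4i1 was lower in smooth muscle, with 1365, 1315 and 1230 CPM in sham and 1070, 1084 and 1014 in MCAO (log2 change -0.30 ± 0.058, adjusted p = 1.15e-04), and was not called in pericytes (0.018). In pericytes the mean CPM of each of the 8 pericyte markers was also lower in MCAO. Kcnj8 went from 1603 to 1554, Vtn from 13620 to 10370 and Atp13a5 from 962 to 516. Whether the Cox4i2 change in pericytes goes with these markers was not tested. The Ndufa4l2 share of its pair was 82.6, 92.4 and 89.3% in sham and 88.1, 88.9 and 93.3% in MCAO in pericytes and 51.2, 50.2 and 53.1% in sham and 54.8, 53.1 and 54.3% in MCAO in smooth muscle, and both overlapped between the groups (exact permutation p = 0.7 and 0.2, two-sided). The change of the pericyte share was 2.03 percentage points and turned to -0.710 without sham 1. In astrocytes the Cox4i2 share was 3.21, 3.63 and 2.93% in sham and 3.18, 2.92 and 2.66% in MCAO (exact permutation p = 0.2, two-sided). In endothelial cells Cox4i2 was called higher (log2 change 0.59 ± 0.19, adjusted p = 0.016), a call lost without sham 1 (adjusted p = 0.081) and with DESeq2 (adjusted p = 0.059), but at 4.18 and 6.39 CPM it stood at 0.407% and 0.830% of the pericyte level, where the 8 pericyte markers stood at a median of 0.394% and 0.741% of theirs.

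Cox6a2, the form of subunit 6a typical of heart and muscle, had its highest mean CPM in microglia. It gave 17.1, 16.3 and 12.3 CPM in sham and 45.9, 40.9 and 49.6 in MCAO there (log2 change 1.59 ± 0.12, adjusted p = 6.60e-10), and its share of Cox6a1 and Cox6a2 UMIs was 4.85, 4.70 and 3.79% in sham and 7.84, 7.06 and 8.48% in MCAO (exact permutation p = 0.1, two-sided). In monocyte-derived cells it gave 0, 39.5 and 0 CPM in sham and 7.94, 5.21 and 3.54 in MCAO, from 0, 16 and 0 UMIs in the sham libraries. The sham mean was 86.5% of the microglial mean in those cells, 29.5% in oligodendrocytes and 23.5% in border macrophages, and the MCAO mean 12.2%, 19.9% and 8.48%. Outside microglia the highest sham value thus came from 1 library of monocyte-derived cells, and it exceeded the microglial values of sham. A Cox6a2 UMI was found in 3.34% of sham and 12.4% of MCAO microglia, or 1.40% and 3.98% after thinning each cell to 1000 UMIs. In choroid plexus cells, which should lack it, 0.0975% and 0.651% had a UMI. Median depths per kept cell were 5958 and 4292 UMIs there. In microglia the alternative form was thus higher after MCAO on both measures.

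Cox6b2, described as the testis form of subunit 6b, had its highest CPM in choroid plexus epithelium, with 352, 326 and 325 CPM in sham and 188, 166 and 180.5 in MCAO (log2 change -0.91 ± 0.065, adjusted p = 3.63e-12). Its share of the pair was 18.8, 17.8 and 18.1% in sham and 13.4, 12 and 12.4% in MCAO in choroid plexus epithelium and 6.56, 7.96 and 8.33% in sham and 11.4, 13.7 and 15.4% in MCAO in pericytes, so it was lower in every MCAO library of the former and higher in every one of the latter (exact permutation p = 0.1 for each, two-sided). Pericyte Cox6b2 gave 55.7, 55.5 and 62.8 CPM in sham and 82.4, 110.2 and 127 in MCAO (log2 change 0.85 ± 0.29, adjusted p = 0.047). In fibroblasts the Cox6b2 share was 23.1, 14.6 and 19.2% in sham and 18.7, 2.56 and 12.9% in MCAO, with overlapping groups (exact permutation p = 0.2, two-sided). Choroid plexus cells also used Cox8b and Cox7a1, forms best known from muscle. The Cox8b share of its pair was 20.7, 18.8 and 20.4% in sham and 22.2, 23.5 and 22.9% in MCAO, with Cox8b itself not called (-0.036) and Cox8a lower. The Cox7a1 share was 8.32, 8.12 and 9.08% in sham and 7.10, 6.73 and 7.96% in MCAO, and Cox7a1 gave 129.8, 124 and 139 CPM in sham and 88.5, 85.7 and 107 in MCAO (log2 change -0.49 ± 0.088, adjusted p = 1.28e-04). Because 3' counts do not adjust for how well each transcript is primed, a share within a pair does not give the true proportion of its forms. The shares are therefore compared between groups and between classes.

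**Figure D5:**
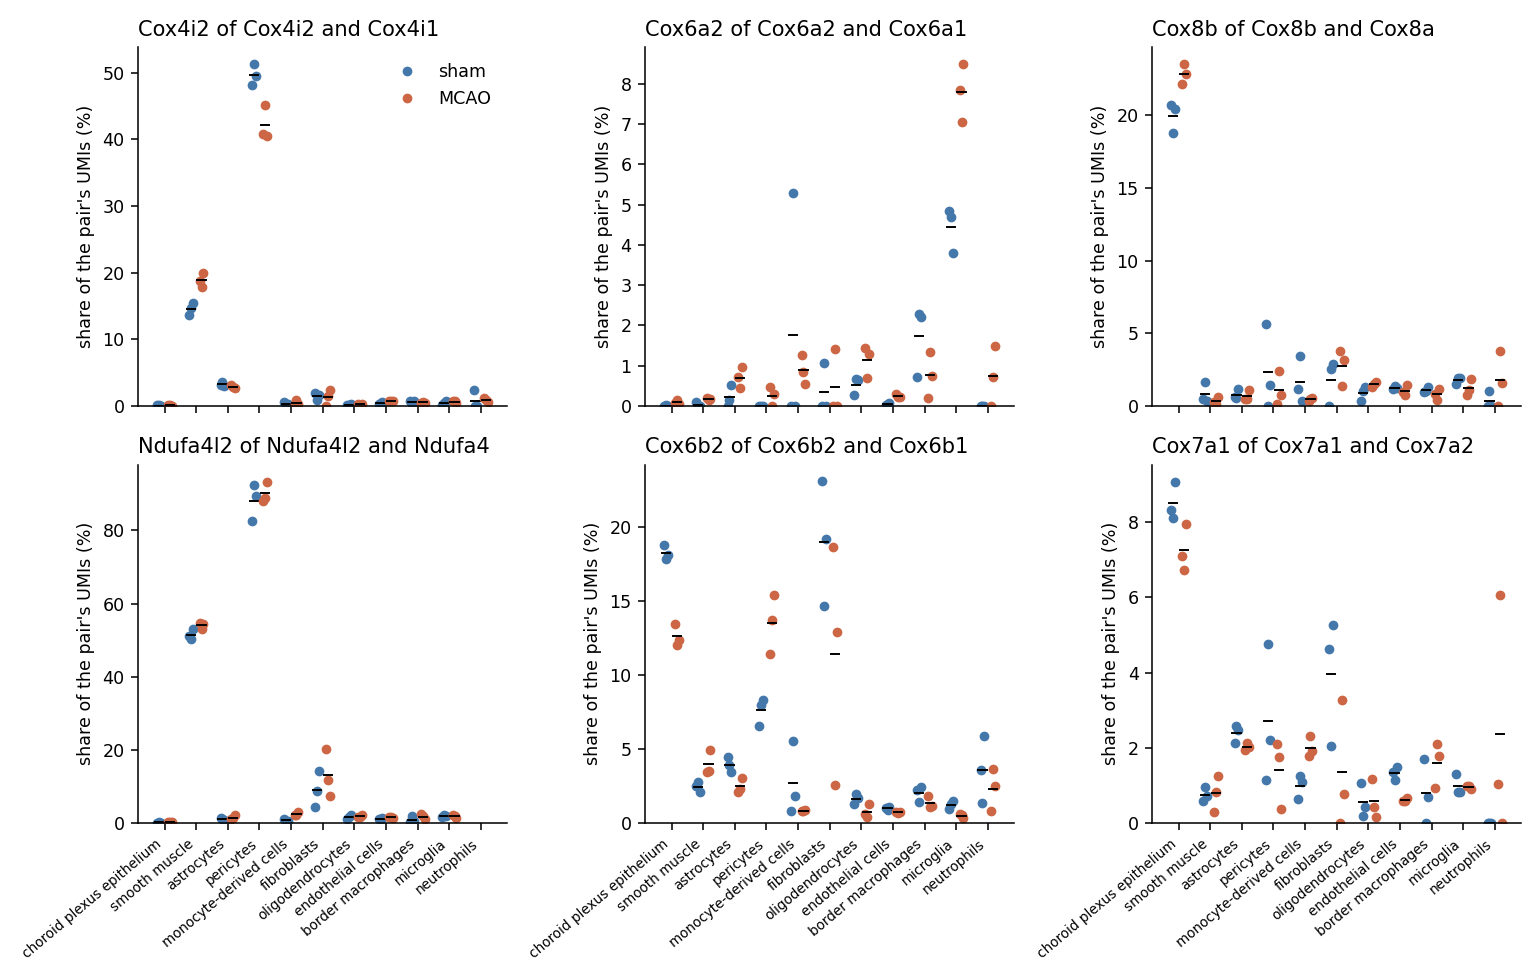
Percent of the UMIs of each of 6 pairs that came from the alternative form, by cell class; points are libraries and dashes are group means. Cox4i2 and Ndufa4l2 stand out in pericytes and smooth muscle, Cox6a2 in microglia and 1 sham library of monocyte-derived cells, and Cox8b and Cox7a1 in choroid plexus epithelium, while Cox6b2 is high in choroid plexus epithelium, fibroblasts and pericytes.

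Among the genes whose sham level over the 11 classes was most like that of Cox4i2, by Pearson's r of log2(CPM + 1) among 14042 genes, were Heyl (0.973), Zbtb7c (0.958), Kcns3 (0.957) and P2ry14 (0.949). Heyl is a transcription factor downstream of Notch, and P2ry14 a receptor for sugar nucleotides. P2ry14 was 1177 ± 39.0 CPM in sham pericytes and 142 ± 16.5 in smooth muscle, and Heyl 246 ± 41.7 and 197 ± 23.3. Zbtb7c and Kcns3 were rare, at 13.8 ± 12.2 and 16.5 ± 11.1 CPM in sham pericytes. The 11 points share their libraries, and the likeness rests on values that were highest in mural cells.

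Genes around the respiratory chain were read from the same fits, in which 29.9% of all genes were called higher and 31.8% lower in microglia, 24.3% and 22.2% in endothelial cells and 13% and 11.2% in astrocytes. For the mitochondrial ribosome, which translates the mt- messages, edgeR called 64 higher and 1 lower of 77 in microglia, 32 higher and 6 lower of 77 in endothelial cells and 4 higher and 1 lower of 77 in astrocytes, with median log2 changes of 0.45, 0.12 and -0.052. Among complex II and the mobile electron carriers, 4 higher and 1 lower of 9 were called in microglia, 4 higher and 2 lower of 9 in endothelial cells and 0 higher and 1 lower of 9 in astrocytes. Cycs, which encodes cytochrome c, was 158 ± 5.37 CPM in sham and 419 ± 13.3 in MCAO in microglia (log2 change 1.41), with log2 changes of 0.59 in endothelial cells and 0.058, not called, in astrocytes. The succinate dehydrogenase subunit Sdhb was higher in microglia (0.39), and the flavoprotein subunit Sdha was not called (-0.12).

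For the assembly of complexes III and IV the calls were 14 higher and 4 lower of 26 in microglia, 3 higher and 8 lower of 26 in endothelial cells and 1 higher and 7 lower of 24 in astrocytes. Higd2a, a factor for supercomplex assembly, was 214 ± 15.8 CPM in sham and 93.6 ± 2.31 in MCAO in microglia (log2 change -1.19) and lower in endothelial cells (-0.26) and astrocytes (-0.31). It shared its direction with Cox7a2l in microglia. The copper chaperone Cox17 differed by class, at 0.46 in microglia, -0.13 in endothelial cells and -0.30 in astrocytes. For regulation of ATP synthase and export of ATP, 9 higher and 0 lower of 11 were called in microglia, 6 higher and 0 lower of 11 in endothelial cells and 1 higher and 1 lower of 11 in astrocytes. Slc25a5, an ADP/ATP carrier, was 905 ± 17.6 CPM in sham and 1434 ± 33.9 in MCAO in microglia (log2 change 0.66). Ucp2, an uncoupling protein family member, was higher in microglia (1.34), endothelial cells (0.93) and astrocytes (1.54), where no nuclear respiratory chain gene was called higher.

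The tricarboxylic acid cycle and pyruvate entry had 14 higher and 4 lower of 21 called in microglia, 10 higher and 3 lower of 22 in endothelial cells and 1 higher and 1 lower of 22 in astrocytes. Mdh2 was 164 ± 2.69 CPM in sham and 325 ± 0.344 in MCAO in microglia (log2 change 0.98). Idh3a was higher in microglia (0.99), endothelial cells (0.52) and astrocytes (0.37). Pdk1, a kinase that shuts off pyruvate dehydrogenase, was 68.1 ± 4.11 CPM in sham and 27.6 ± 0.970 in MCAO in microglia (-1.30). Of factors of mitochondrial biogenesis, 1 higher and 3 lower of 17 were called in microglia, both smaller shares than over all genes (29.9% and 31.8%). The nuclear receptor Esrra was lower in microglia (-0.46), endothelial cells (-0.59) and astrocytes (-1.14). Nrf1, the gene for the factor whose letters are shown above, changed by -0.39 in microglia, and the coactivator Ppargc1a by -0.57 in astrocytes. Of genes for mitophagy and mitochondrial dynamics, 2 higher and 5 lower of 11 were called in microglia, beside 29.9% and 31.8% of all genes, among them the ubiquitin ligase Park2 (-2.03) and its kinase Pink1 (-0.67), both lower. The mitophagy receptor Bnip3l was lower in microglia (-0.53), endothelial cells (-0.38) and astrocytes (-0.43).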

How the data were processed

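Per the submitters' processing notes, the authors used Cell Ranger, STAR and the mm10 build. No version or annotation is given in the sources used here. They deposited raw UMI counts per gene and barcode, 1 matrix per library. The genes and lists were chosen with earlier results of these data known.

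Barcodes with under 300 genes or over 10% mt- UMIs (15 and 1298) and doublets called against simulated pairs at 0.8% per 1000 barcodes (4660) were left out. Cells were clustered on 2000 variable genes without respiratory chain genes (30 components, 20 neighbours, Leiden resolution 1, seed 1, leidenalg 0.10.2), giving 35 clusters named by marker lists. UMIs were summed per class and library and tested with edgeR 4.0.16 (R 4.3.3; filterByExpr, TMM, quasi-likelihood, Benjamini-Hochberg over all genes of the class, threshold 0.05). CPM values are edgeR's, after TMM scaling, and errors of log2 changes are standard errors. On simulated data for microglia, edgeR recovered 40% of 100 genes changed by 0.5 on the log2 scale and 83% of 100 changed by 1, over 11713 genes. The simulation gave every gene the same fixed dispersion and drew the changed genes from all levels. Its rates therefore do not give the power for abundant respiratory chain genes. Libraries of a group differed by more than sampling noise (chi-square per degree of freedom 3.78 to 12.7). Named genes are all mt- genes, both genes of 6 isoform pairs, the most abundant gene of each complex, called assembly factors and, in each main class, the 6 highest and 6 lowest log2 changes among called genes above 50 CPM; genes outside that rule were chosen after their values were seen. Some genes that meet the rules are not reported here. Gene positions are from GENCODE vM21 and promoters from RefSeq GRCm38.p6. Alternatives covered scaling, filters, DESeq2 1.42.0, doublets, thinning, clustering, a replicate block and each library left out.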

Additional observations from a re-analysis of the deposited data

Results flagged for a closer look

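The change after MCAO differed between classes, by the edgeR test of the difference itself, for 67 of 86 nuclear genes between microglia and endothelial cells, 38 of 85 between astrocytes and endothelial cells and 66 of 85 between microglia and astrocytes. For the mt- genes the corresponding counts were 13, 9 and 12 of 13. Over all genes tested, the change was higher in the first class of these pairs for 24.7%, 7.09% and 17.2%. It was lower in the first class for 21.7%, 9.95% and 17.3%. For mt-Nd1 the difference in log2 change was 0.99 ± 0.091 between microglia and astrocytes (adjusted p = 7.78e-13) and for Cox7b it was 1.45 ± 0.10 (adjusted p = 1.83e-17). The classes of a library share that library's preparation, which the fit holds as a term. No value of a single library was assessed as an outlier, since each group has 3 libraries.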

How the results depend on the processing

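Of 416 recomputed values for the main comparisons, 366 stayed within 1.5 times the count or 1 SD of the share, 49 moved and 1 turned direction. Of the log2 changes of 82 called gene and class combinations, 1241 recomputed values kept direction and call and 98 kept direction but lost the call, none turning direction. The causes were not tested. With a library left out, nuclear counts ran from 64 to 69 higher and 4 to 6 lower in microglia, 19 to 27 and 12 to 22 in endothelial cells, and 0 to 0 and 18 to 32 in astrocytes. For mt- genes they ran from 10 to 11 and 1 to 1, 0 to 2 and 3 to 5, and 0 to 1 and 9 to 12. The MCAO minus sham share, in percentage points, ran in microglia from 0.369 to 0.393 (nuclear) and 0.0867 to 0.203 (mt-), in endothelial cells from -0.0822 to -0.0658 and -0.466 to -0.308, and in astrocytes from -0.646 to -0.514 and -1.68 to -1.4. Between classes, nuclear counts ran from 59 to 64 (microglia above endothelial cells), 1 to 2 (below), 0 to 1 (astrocytes above endothelial cells), 19 to 35 (below), 55 to 65 (microglia above astrocytes) and 1 to 2 (below), and mt- counts from 4 to 8 (astrocytes below endothelial cells). The Ndufa4l2 share in pericytes ran from -0.71 to 4.17 and was -0.710 without sham 1. With DESeq2, 11 nuclear genes were lower in endothelial cells, 0 mt- genes higher there and 19 nuclear genes lower in astrocytes, and with RLE scaling microglia were below endothelial cells for 5 nuclear genes. Without the low-count filter 5 mt- genes were lower in endothelial cells; with the replicate block, the 5% mt- limit or doublets kept, 0 were higher. The 5% limit left 17 nuclear and 2 mt- genes lower in astrocytes, with share differences of -0.427 and -0.769 percentage points; without any limit the latter was -1.82. Thinning gave 14 higher genes in endothelial cells, 17 lower in astrocytes, and nuclear share differences of 0.322 in microglia and -0.117 in endothelial cells. With doublets kept the microglial nuclear difference was 0.356. Among alternatives added after seeing the data, leaving out mt-Atp8 gave 0 lower mt- genes in microglia and mt- share differences of 0.239 in microglia, -0.183 in endothelial cells and -1.17 in astrocytes. Leaving out the clusters with few microglia markers gave differences of 0.318 (nuclear) and 0.301 (mt-) in microglia, and the largest astrocyte cluster alone gave 1 higher gene, 11 lower and a nuclear difference of -0.436. The labels do not say whether equal replicate numbers pair the libraries. Same-numbered whole libraries correlated at -0.0103, 0.0367 and -0.173, and so few pairs cannot settle it. With a replicate block the nuclear counts were 65 higher and 6 lower in microglia, 23 and 14 in endothelial cells, and 0 and 32 in astrocytes. In the other classes 258 of 304 counts stayed within 1.5 times. Depth limits the smaller classes: over genes of all levels, simulated log2 changes of 0.5 were recovered in 10% in astrocytes against 40% in microglia. These rates are not those of abundant respiratory chain genes, and rare forms such as Cox6b2 outside the choroid plexus rest on few UMIs.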

Other observations

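Among all genes, 3 genes were called lower and 13 higher by edgeR in all 11 classes. The lower genes were mt-Atp8 (log2 changes of -3.76 to -2.04), Dynlt1b, a dynein light chain (-3.22 to -2.14), and Rpl9-ps6, a ribosomal protein pseudogene (-2.55 to -1.21). The higher genes include Spp1, which encodes osteopontin (1.84 to 9.90), the chemokines Ccl2, Ccl3, Ccl4 and Ccl6 (1.10 to 5.86 for Ccl3), the hemoglobin gene Hbb-bs (1.52 to 4.27) and the lipid droplet gene Plin2 (0.90 to 3.73). Among mt- genes, mt-Atp8 was alone in being called in the same direction in every class.

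In endothelial cells Cox6a2 stood at 2.47% in sham and 3.76% in MCAO of its microglial level, beside 2.31% in sham and 4.16% in MCAO for the microglia marker P2ry12 and 3.04% in sham and 6.17% in MCAO for Tmem119. Cox6a2 was called higher in endothelial cells (log2 change 2.13 ± 0.41, adjusted p = 2.82e-04), at 0.206, 0.400 and 0.523 CPM in sham and 2.07, 1.62 and 1.44 in MCAO.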
